A study of Mus musculus with 10 samples.

Results

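The HOX genes of the mouse colon were described across all 10 libraries of the series. The members were the rows of the deposited expression table whose symbol is Hox, a cluster letter from a to d and a paralogue number. There were 38 of them among 18398 genes: 11 in HOXA, 10 in HOXB, 8 in HOXC and 9 in HOXD. Hoxc12 was not analysed here, and antisense transcripts of the clusters were left out by the rule. The study measured colon RNA of wild-type mice, with 5 libraries labelled pro-inflammatory diet and 5 labelled normal diet. Levels are FPKM, which corrects fragment numbers for gene size and sequencing depth. Age, sex and the stretch of colon that each sample came from are not given in the labels, nor whether each sample came from a separate animal. The p-values therefore speak only of how far these samples vary, and that variation may be technical.

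HOX genes encode homeodomain transcription factors that give cells of the embryo their position between head and tail. They sit in clusters in the order of their paralogue numbers, low numbers being active towards the head and high numbers towards the tail, and adult gut tissue keeps much of this pattern. Group 13 genes mark the end of the hindgut. Hoxa13 and Hoxd13 are needed to form the hindgut end and anorectum in mice, and Hoxb13 is known for its expression in distal colon and prostate. In the GRCm38 assembly, with GENCODE M21 positions, HOXA lies on chromosome 6 from 52155590 to 52260880 and HOXB on chromosome 11 from 96194316 to 96368256. HOXC lies on chromosome 15 from 102921103 to 103036852 and HOXD on chromosome 2 from 74668310 to 74765142. The members are protein-coding genes. Hoxb13 stands 74009 bp from Hoxb9, its nearest neighbour in the cluster, whereas 2621 bp separate Hoxd10 from Hoxd9.

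The promoters of 22 of the 38 members were found in the RefSeq table (GRCm38.p6), as windows of 250 bases before to 50 after each start. A pair of group 13 genes that were low in pro-inflammatory diet libraries 2 and 5 is shown with a pair that was high in them, since these opposite shifts carry the result. Capitals mark TTTATNG on either strand, a motif bound by CDX factors. Hoxa13 is at chr6:52260831-52261130 on the minus strand, Hoxd13 at chr2:74667975-74668274, Hoxb8 at chr11:96281655-96281954 and Hoxd4 at chr2:74721728-74722027, these last 3 on the plus strand.
Hoxa13: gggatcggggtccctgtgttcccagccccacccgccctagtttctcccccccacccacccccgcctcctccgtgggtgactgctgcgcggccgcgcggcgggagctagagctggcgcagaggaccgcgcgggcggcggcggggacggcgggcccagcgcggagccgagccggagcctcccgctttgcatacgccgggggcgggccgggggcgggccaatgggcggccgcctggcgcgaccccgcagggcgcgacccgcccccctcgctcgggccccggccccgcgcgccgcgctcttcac
Hoxd13: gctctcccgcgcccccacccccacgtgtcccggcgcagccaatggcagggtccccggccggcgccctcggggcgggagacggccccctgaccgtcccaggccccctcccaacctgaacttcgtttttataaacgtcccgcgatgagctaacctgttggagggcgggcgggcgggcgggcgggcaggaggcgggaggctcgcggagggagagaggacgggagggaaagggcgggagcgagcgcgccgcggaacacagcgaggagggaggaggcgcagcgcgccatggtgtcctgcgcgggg
Hoxb8: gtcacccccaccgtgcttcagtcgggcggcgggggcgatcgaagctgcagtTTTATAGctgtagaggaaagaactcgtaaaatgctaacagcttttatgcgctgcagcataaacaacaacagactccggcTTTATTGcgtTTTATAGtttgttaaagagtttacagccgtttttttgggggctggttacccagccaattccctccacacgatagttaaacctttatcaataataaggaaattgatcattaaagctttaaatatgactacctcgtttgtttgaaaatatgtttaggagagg
Hoxd4: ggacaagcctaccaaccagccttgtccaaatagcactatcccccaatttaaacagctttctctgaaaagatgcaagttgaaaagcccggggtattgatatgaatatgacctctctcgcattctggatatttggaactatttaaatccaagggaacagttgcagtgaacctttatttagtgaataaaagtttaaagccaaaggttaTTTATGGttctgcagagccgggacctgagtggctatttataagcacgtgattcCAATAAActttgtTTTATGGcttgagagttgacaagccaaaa
Hoxa13 and Hoxd13 are rich in G and C here, at 81.0% and 74.3%, against 42.3% for Hoxb8 and 39.7% for Hoxd4. This was computed for the windows shown only, and the motif in Hoxb8 and Hoxd4 is itself rich in A and T. No difference in base content between low and high members can be read from it. The motif occurred 3 times in each of Hoxb8 and Hoxd4 and in no other of the 24 windows of HOX genes, which is 8.33% of them. It occurred in 10.9% of all 32851 windows. Hoxa11, Hoxb4, Hoxd1, Hoxd3, Hoxd8 and Hoxd9 were also highest in pro-inflammatory diet libraries 2 and 5, and their windows held no motif. The motif thus does not mark the members that were high there. A match describes the letters of the window and is not evidence of binding.

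Depth ran from 15652783 to 18341956 reads on genes per library, recovered from the steps of the FPKM values. Epithelial markers such as Epcam and Krt8 and smooth muscle markers such as Acta2 and Myh11 were present in every library, as the tissue label says. Libraries 2 and 5 of the pro-inflammatory diet and library 4 of the normal diet stood apart, and values are given with and without them where a result rests on them. Among tested genes, libraries 2 and 5 of the pro-inflammatory diet held the highest pair of values for 13.9% and the lowest pair for 17.4%. Library 4 of the normal diet held the highest value for 6.55%.

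Of the 38 members, 25 had a mean of at least 1 FPKM over the 10 libraries and were tested. The other 13, at mean levels from 0.0052 to 0.860 FPKM, included all 8 HOXC genes, Hoxa4, Hoxb1, Hoxd1 and Hoxd3. Hoxb3, Hoxb7, Hoxb8, Hoxd4 and Hoxd9 averaged under 1 FPKM over the 8 libraries other than pro-inflammatory diet libraries 2 and 5, so these 5 were tested only because of those 2 libraries. Hoxb13 was the most abundant member in 8 of 10 libraries, and the remaining pair was led by Hoxb6 and Hoxb9.

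**Figure D1:**
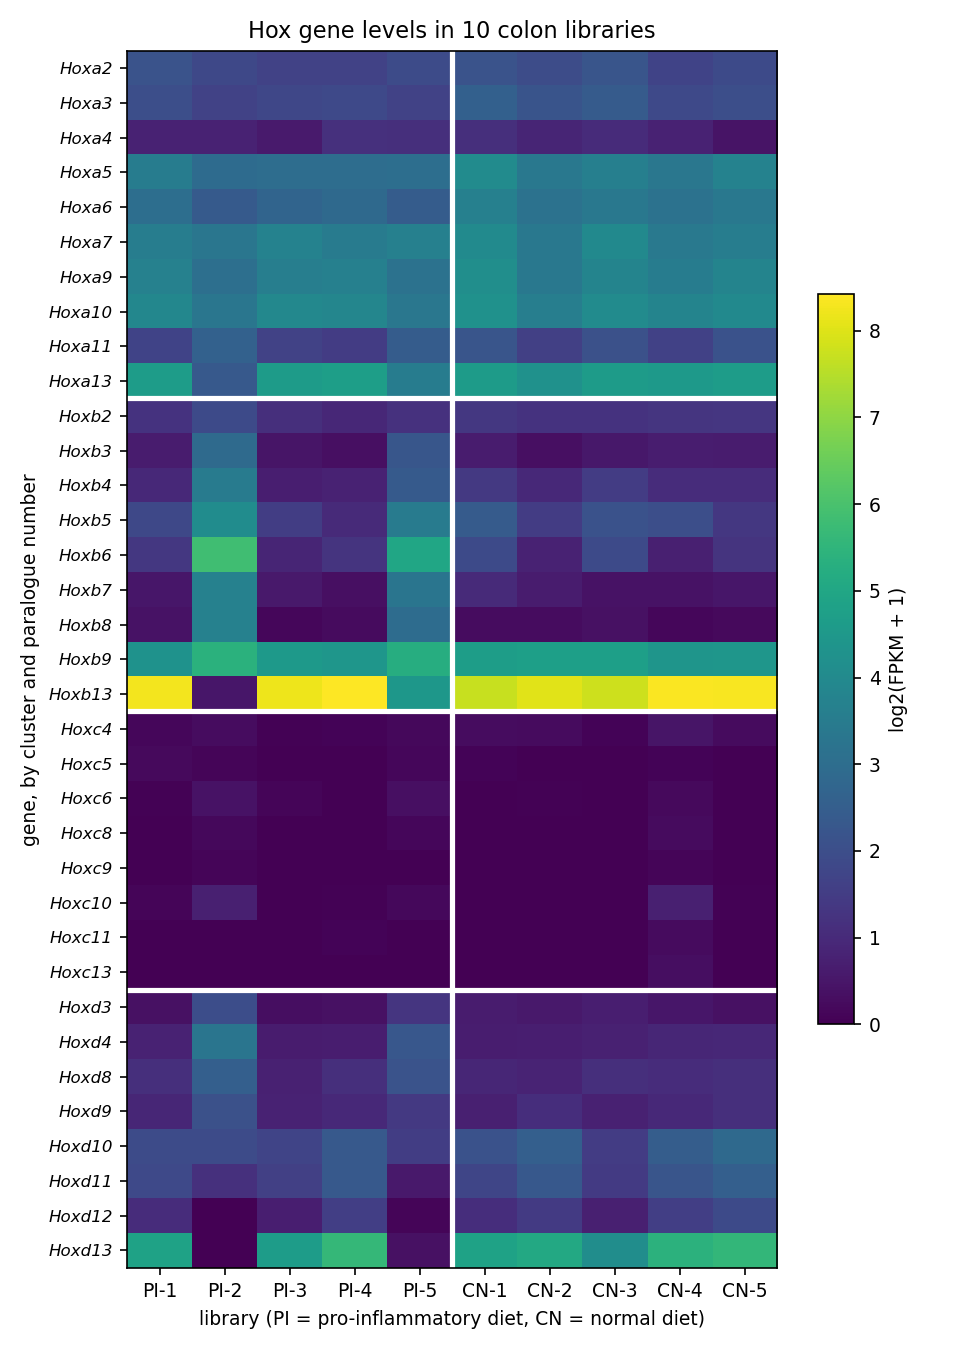
Level of the HOX genes of groups 2 to 13 as log2(FPKM + 1), colour scale, with genes in rows by cluster and paralogue number and libraries in columns, pro-inflammatory diet (PI) left of normal diet (CN). Columns PI-2 and PI-5 differ from the other 8: group 13 genes are darker there, and Hoxb3 to Hoxb8 and Hoxd3 to Hoxd9 are bright.

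The group 13 genes, the tail end of the clusters, separated pro-inflammatory diet libraries 2 and 5 from all the others. Hoxb13 was at 312, 0.417, 292, 341 and 20.9 FPKM in pro-inflammatory diet libraries 1 to 5, against 211, 262, 218, 333 and 322 FPKM in normal diet libraries 1 to 5. Library 2 held 10 Hoxb13 reads, where the exact Poisson interval of the level is 0.200 to 0.767 FPKM (95%, counting error only), and library 5 held 455 reads. The other 3 libraries of that diet overlapped the normal diet range and reached above it. In bulk tissue, fewer cells of a type and less RNA per cell cannot be told apart.

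Hoxd13 was at 27.9, 0.0222, 24.2, 47.3 and 0.293 FPKM in pro-inflammatory diet libraries 1 to 5, against 28.1, 32.7, 16.5, 41.8 and 46.7 FPKM in normal diet libraries 1 to 5. These levels in libraries 2 and 5 rest on 1 and 12 reads, with exact Poisson intervals up to 0.124 and 0.512 FPKM. Hoxa13 showed the same libraries low with a smaller step. It was at 24.1, 4.16, 23.5, 25.1 and 10.6 FPKM on the pro-inflammatory diet, against 23.7, 18.2, 23.7, 22.6 and 24.2 FPKM on the normal diet. Library 2 was the lower of the pair for all 3 genes. Hoxb13 in library 5 was 50.1 times its level in library 2, while for Hoxa13 this ratio was 2.54.

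**Figure D2:**
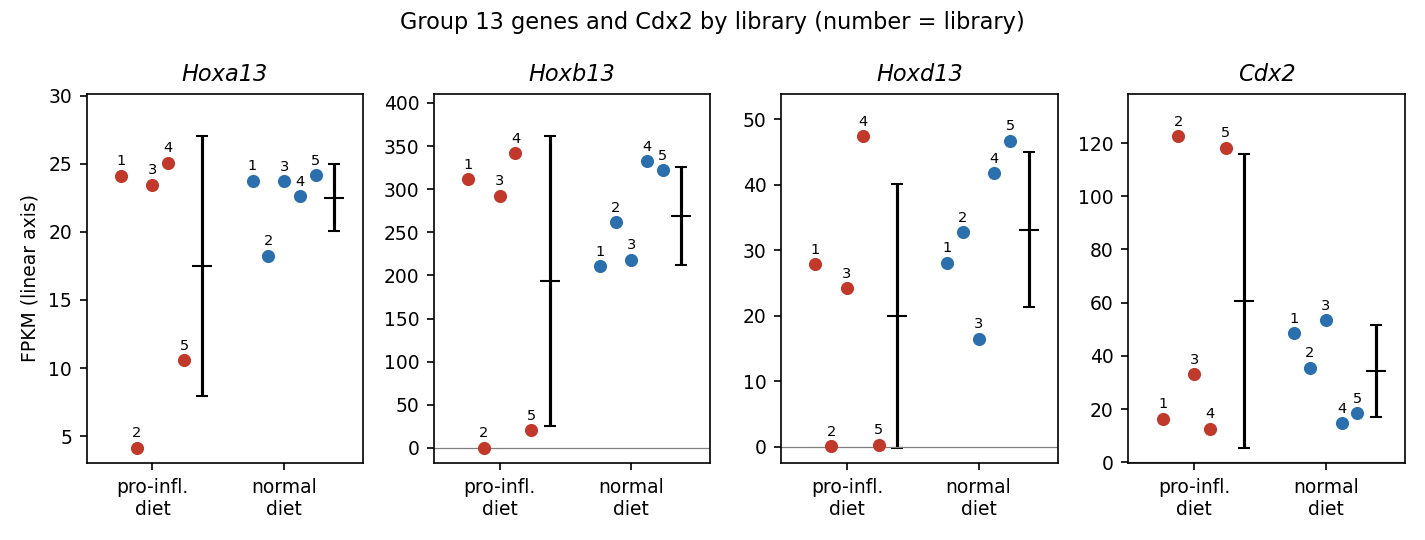
FPKM of Hoxa13, Hoxb13, Hoxd13 and the intestinal factor Cdx2 in each library, with pro-inflammatory diet points left of normal diet points, library numbers above the points and the mean with SD of 5 beside each group. Pro-inflammatory diet libraries 2 and 5 are the lowest 2 points for the HOX genes and the highest 2, at 123 and 118 FPKM, for Cdx2.

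Next to group 13 in HOXD, Hoxd12 and Hoxd11 followed Hoxd13, and Hoxd10 did so less clearly. Hoxd12 was at 1.09, 0, 0.645, 1.98 and 0.0744 FPKM on the pro-inflammatory diet, against 1.15, 1.69, 0.662, 1.95 and 2.75 FPKM on the normal diet. The 0 in library 2 allows a level of up to 0.0676 FPKM, which 3 reads would give. Hoxd11 was at 2.66, 1.26, 2.01, 4.12 and 0.492 FPKM on the pro-inflammatory diet, against 2.41, 3.96, 1.68, 3.67 and 4.92 FPKM on the normal diet. Libraries 2 and 5 of the pro-inflammatory diet were thus the lowest pair for both genes. Hoxd10 was at 2.81, 2.77, 2.34, 4.16 and 1.92 FPKM on the pro-inflammatory diet, against 3.34, 4.85, 1.81, 4.56 and 6.39 FPKM on the normal diet, and there the lowest value was in normal diet library 3.

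HOXD levels also varied among the other 8 libraries. From lowest to highest of these 8, Hoxd13 spanned 2.88-fold, Hoxd12 4.27-fold, Hoxd11 2.93-fold and Hoxd10 3.54-fold, while Hoxb13 spanned 1.62-fold and Hoxa13 1.37-fold. Pro-inflammatory diet library 4 and normal diet libraries 2, 4 and 5 held the 4 highest values of each of Hoxd10, Hoxd11, Hoxd12 and Hoxd13. These 4 libraries were on both diets. For Hoxb13, library 1 of the pro-inflammatory diet took the place of normal diet library 2 among the highest 4.

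HOXB genes of lower number showed the opposite pattern to Hoxb13. Hoxb6 reached the highest level of them in library 2 and is given in full, a choice made after its values were seen. It was at 1.57, 55.6, 0.811, 1.39 and 30.6 FPKM in pro-inflammatory diet libraries 1 to 5, against 2.68, 0.752, 2.67, 0.668 and 1.41 FPKM in normal diet libraries 1 to 5. Library 2 was 20.8 times and library 5 was 11.4 times the highest of the other 8. Hoxb8, the neighbour of Hoxb7, was at 12.0 and 6.83 FPKM in libraries 2 and 5 and between 0.0962 and 0.325 FPKM in the other 8, and Hoxb7 at 12.0 and 8.74 FPKM against 0.282 to 0.993 FPKM. Relative to the highest of the other 8, Hoxb8 stood higher than Hoxb6, at 36.9 times in library 2 and 20.98 times in library 5. Hoxb3, Hoxb4 and Hoxb5 were at 6.52, 10.4 and 16.1 FPKM in library 2 and at 3.79, 4.24 and 10.4 FPKM in library 5. Their highest levels in the other 8 were 0.607, 1.81 and 4.33 FPKM.

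At both ends of this run the shift was smaller. Hoxb9, the abundant trunk-level gene next to the gap before Hoxb13, was at 18.8, 40.7, 22.7, 20.6 and 36.6 FPKM on the pro-inflammatory diet, against 24.9, 26.1, 26.0, 19.9 and 20.4 FPKM on the normal diet. Libraries 2 and 5 were 1.56 and 1.40 times the highest of the other 8. Hoxb2, of hindbrain-level identity in the embryo, was at 2.68 FPKM in library 2 but at 1.31 FPKM in library 5, inside the range of 0.908 to 1.58 FPKM of the other 8. Hoxb1 was listed at 0 in 9 libraries. An annotated antisense gene, Hoxb5os, overlaps Hoxb5 and Hoxb6, and Hoxb3os overlaps Hoxb2 and Hoxb3. The kit was stranded, but no label says whether strand entered the counting, so reads of such partners cannot be told apart. Hoxb4, Hoxb7, Hoxb8 and Hoxb9 have no annotated gene on the opposite strand.

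The lower-numbered HOXD genes resembled their HOXB paralogues. Hoxd4 was at 8.77 and 3.83 FPKM in pro-inflammatory diet libraries 2 and 5 and between 0.574 and 0.929 FPKM in the other 8. Hoxd3 was at 3.01 and 1.47 FPKM against 0.244 to 0.616 FPKM, and Hoxd8 at 4.92 and 3.43 FPKM against 0.706 to 1.22 FPKM. Hoxd9 was at 0.886, 3.24, 0.752, 0.949 and 1.65 FPKM on the pro-inflammatory diet, against 0.666, 1.15, 0.692, 0.945 and 1.19 FPKM on the normal diet. The turn between higher and lower levels in these 2 libraries therefore fell between Hoxd9 and Hoxd11 in HOXD and between Hoxb9 and Hoxb13 in HOXB. Hoxd3 and Hoxd4 overlap on the same strand in the annotation, and Hoxd3os1 overlaps them and Hoxd8 on the other, so their reads may be shared.

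**Figure D3:**
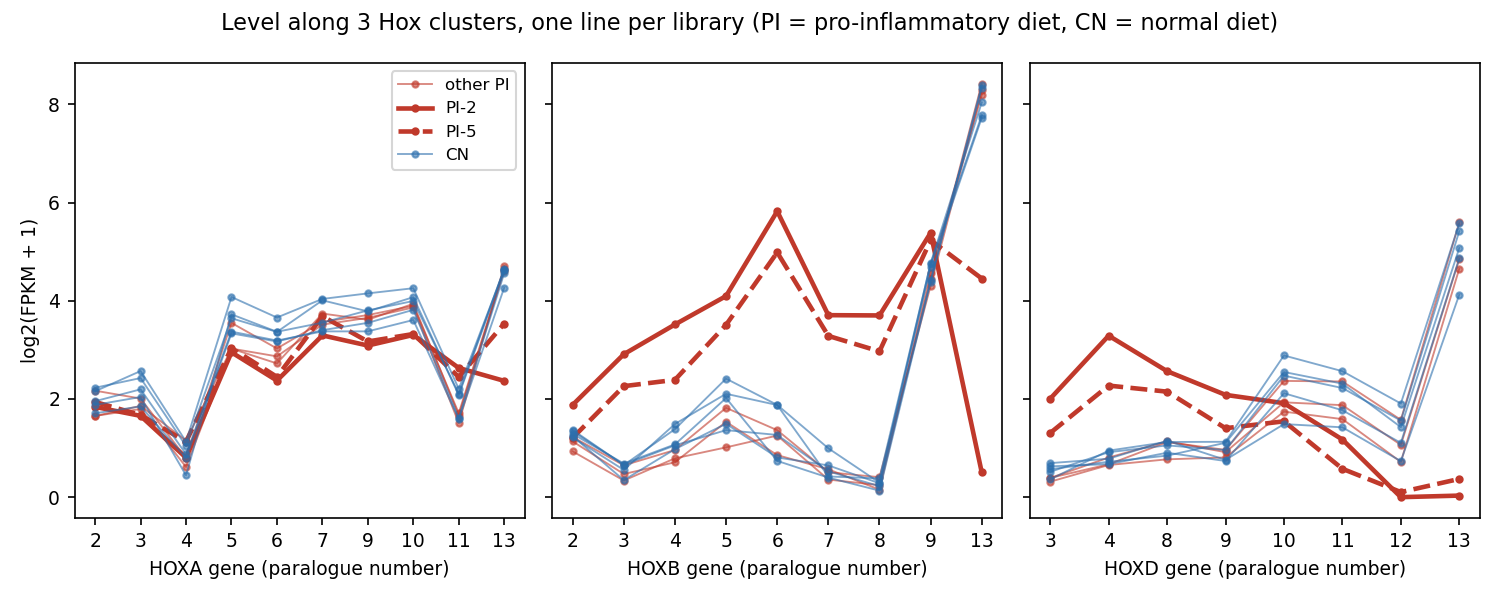
Level of the HOXA, HOXB and HOXD genes of groups 2 to 13 as log2(FPKM + 1) by paralogue number, with 1 line per library (red pro-inflammatory diet, blue normal diet). The thick lines of pro-inflammatory diet libraries 2 (solid) and 5 (dashed) lie above the rest from Hoxb3 to Hoxb9 and Hoxd3 to Hoxd9 and below them at group 13 of each cluster, with the smallest departures in HOXA.

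HOXA moved least between libraries apart from Hoxa13. Hoxa10 was at 13.9, 8.87, 14.3, 13.5 and 9.0 FPKM on the pro-inflammatory diet, against 18.1, 11.2, 15.8, 13.1 and 14.9 FPKM on the normal diet, so libraries 2 and 5 were the lowest pair. Hoxa9 was at 12.1, 7.50, 11.2, 11.6 and 8.0 FPKM on the pro-inflammatory diet, against 16.8, 9.38, 12.8, 10.7 and 12.96 FPKM on the normal diet, with the same pair lowest. Hoxa11 went the other way. It was at 2.27, 5.19, 2.17, 1.85 and 4.45 FPKM on the pro-inflammatory diet, against 3.61, 2.01, 3.22, 2.06 and 3.31 FPKM on the normal diet, and Hoxa11os overlaps it on the opposite strand. Hoxa3 and Hoxa6 also had libraries 2 and 5 lowest, and Hoxa2, Hoxa4, Hoxa5 and Hoxa7 each had at least 1 other library among their lowest 2.

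Counted over the clusters, libraries 2 and 5 held the highest pair of values for 14 of 38 members and the lowest pair for 9. Among the 25 tested members these counts were 11 and 9, where the shares over all tested genes were 13.9% and 17.4%. Of the 11, 5 passed the filter through these libraries alone, so that count is partly set by the filter. Among the 20 members with a mean of at least 1 FPKM over the other 8 libraries, a filter chosen after seeing the data, the counts were 6 and 9, where 13.3% and 17.7% of all genes past it had these patterns. The 11 comprised 7 HOXB genes, 3 HOXD genes and Hoxa11, and the 9 comprised 5 HOXA genes, 3 HOXD genes and Hoxb13. These libraries were singled out after their values were seen, so the counts are a description with no test. In 13 of the 14 members that were highest in this pair library 5 lay below library 2, and in 8 of the 9 that were lowest it lay above it. Of these 8, Hoxa3, Hoxa6, Hoxa9 and Hoxa10 were nearly equal in both, at 1.02, 1.07, 1.07 and 1.01 times the level in library 2. The ratio was 2.54 for Hoxa13, 13.2 for Hoxd13 and 50.1 for Hoxb13, and Hoxd12 was at 0 in library 2. Over the 11 tested members that were highest, the level in library 5 was 0.406 to 0.899 of that in library 2.

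Group 13 genes made up 78.2%, 1.97%, 78.3%, 81.2% and 15.9% of the summed FPKM of all members in pro-inflammatory diet libraries 1 to 5, against 65.5%, 75.3%, 68.1%, 79.8% and 77.4% in normal diet libraries 1 to 5. Within HOXB this share was 0.267% and 16.9% in libraries 2 and 5 of the pro-inflammatory diet and 85.1% to 93.1% in the other 8. Within HOXD it was 0.0925% and 2.22%, against 69.0% to 78.1% in the other 8. In HOXA, where Hoxa10 and Hoxa7 led in libraries 2 and 5, it was 8.16% and 17.1%, against 20.7% to 30.6% in the other 8. The summed level of all members was 233 and 199 FPKM in these 2 libraries and 379 to 510 FPKM in the other 8.

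Genes beside the tail ends of HOXB and HOXD had the same libraries low. Evx2, an even-skipped type homeobox gene next to Hoxd13 (chromosome 2, 74652991 to 74659557), was at 0.744, 0, 0.718, 1.36 and 0.0389 FPKM on the pro-inflammatory diet, against 0.789, 0.868, 0.576, 1.81 and 1.58 FPKM on the normal diet. Ttll6, a tubulin polyglutamylase gene on the Hoxb13 side of HOXB, was at 3.11 and 3.35 FPKM in libraries 2 and 5 and at 9.08 to 15.9 FPKM in the other 8. At the opposite ends, Mtx2 beside Hoxd1 was at 36.2 and 34.4 FPKM in libraries 2 and 5 and at 35.7 to 46.1 FPKM in the other 8. Skap1 beside Hoxb1 was at 1.21 and 0.995 FPKM against 0.296 to 0.689 FPKM. Evx1, beside Hoxa13, was at 0.475 and 0.392 FPKM, inside the range of 0.188 to 0.793 FPKM of the other 8. Of the 5 neighbours with enough signal for a test, 4 had lower means on the pro-inflammatory diet and 0 passed: Ttll6 had a log2 fold change of -0.78, Calcoco1 of -0.40, Skap2 of -0.08, Smug1 of -0.08 and Mtx2 of 0.03.

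Some other regional genes also set these libraries apart. Cdx2, a homeobox factor of intestinal identity that also regulates HOX genes in the embryo, was at 16.5, 123, 33.2, 12.7 and 118 FPKM on the pro-inflammatory diet, against 48.6, 35.6, 53.3, 14.8 and 18.5 FPKM on the normal diet. Its relative Cdx1 was at 184 and 172 FPKM in libraries 2 and 5, against 173 to 227 FPKM in the other 8. Scnn1g, a subunit of the epithelial sodium channel of distal colon, was at 0.0561 and 0.0411 FPKM in libraries 2 and 5 and at 1.19 to 10.2 FPKM in the other 8. Scnn1b, another subunit, was at 4.02 and 4.96 FPKM, inside their range of 3.09 to 7.32 FPKM. The 5 small intestine markers (Fabp6, Sis, Lct, Alpi and Apoa4) summed to 426 and 154 FPKM in these libraries, to 181 FPKM in normal diet library 4 and to 6.39 to 17.5 FPKM in the other 7. Normal diet library 4 exceeded library 5 in this small intestine sum while its Hoxb13 was at 333 FPKM. Most of these sums was Fabp6, a bile acid binding protein. Alpi was at 19.6 and 25.4 FPKM in libraries 2 and 5, against 0.284 to 2.79 FPKM in the other 8. Apoa4 was at 0.274 and 0.0755 FPKM, inside the range of 0 to 3.20 FPKM of the other 8. Sis was at 1.43 and 4.12 FPKM in libraries 2 and 5. It was at 17.6 FPKM in normal diet library 4 and at 0.0919 to 0.260 FPKM in the other 7. The lactase gene Lct was at 0.0555 and 0.0407 FPKM in libraries 2 and 5, and at 1.47 FPKM in normal diet library 4. The adipocyte markers Adipoq, Plin1 and Fabp4 summed to 154 and 95.6 FPKM in libraries 2 and 5 and to 24.3 to 103 FPKM in the other 8, and the leukocyte marker Ptprc was at 15.8 and 11.6 FPKM against 5.48 to 13.9 FPKM. What these genes' source cells contribute to the HOX levels was not tested.

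HOXC genes were near 0 throughout, at no more than 0.681 FPKM in any library. Hoxc10 was at 0.0884, 0.657, 0, 0.0315 and 0.131 FPKM on the pro-inflammatory diet, against 0, 0, 0, 0.681 and 0.0289 FPKM on the normal diet. Library 2 of the pro-inflammatory diet and library 4 of the normal diet held 22 and 23 of these reads, and no other library more than 4. Hoxc4 was at 0.107, 0.216, 0.0343, 0.0507 and 0.145 FPKM on the pro-inflammatory diet, against 0.204, 0.174, 0.0704, 0.393 and 0.174 FPKM on the normal diet. Normal diet library 4 had the highest level of 5 of the 8 HOXC genes, among them Hoxc13 at 0.233 FPKM, which was listed at 0 in the other 9. Among members of the other clusters it was highest for Hoxb1 alone, at 0.0518 FPKM. Over all tested genes this library was highest for 6.55%, but no HOXC gene was tested. No share was computed for genes at such low levels, so these counts are a description and not a result about HOXC.

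Normal diet library 4 also held RNA of tissues that a colon sample need not contain. The 5 squamous epithelium markers (Krt5, Krt14, Krt13, Krt4 and Trp63) summed to 157 FPKM there and to 0.265 to 1.75 FPKM in the other 9 libraries. The 4 skeletal muscle markers (Acta1, Ckm, Myh4 and Tnnt3) summed to 384 FPKM against 8.57 to 20.3 FPKM in the other 9, with Myh4 among them at 0.103 FPKM. This library listed 1179 genes at 0, fewer than the 1671 to 2041 of the others. Libraries 2 and 5 of the pro-inflammatory diet had squamous sums of 0.265 and 0.415 FPKM. Their skeletal muscle sums were 15.6 and 20.3 FPKM, the 2 highest after normal diet library 4, against 8.57 to 12.8 FPKM in the other 7. Ckm alone was at 13.8 and 17.2 FPKM in them. Acta1 was at 1.46 and 2.96, Tnnt3 at 0.342 and 0.108 and Myh4 at 0 FPKM in both, none of them above the highest of the other 7. Hoxc6 was at 0.315 and 0.265 FPKM in libraries 2 and 5 of the pro-inflammatory diet. The part of these markers' source cells in the HOXC levels was not tested.

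**Figure D4:**
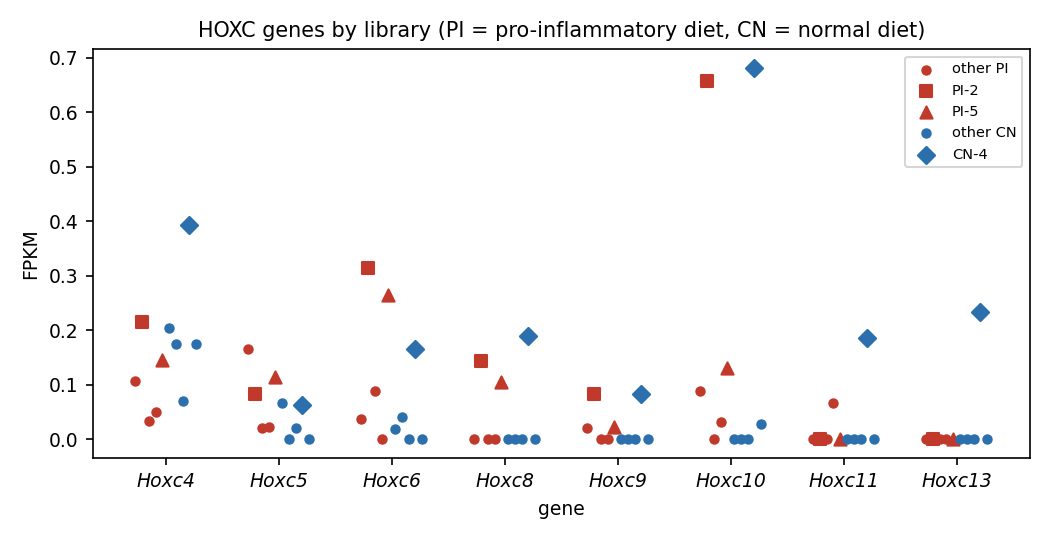
FPKM of the 8 HOXC genes in each library, by symbol and colour (red pro-inflammatory diet, blue normal diet). Normal diet library 4 (diamond) has the highest Hoxc4, Hoxc8, Hoxc10, Hoxc11 and Hoxc13, and pro-inflammatory diet libraries 2 (square) and 5 (triangle) have the highest Hoxc6.

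The diets were compared over all libraries, which asks whether HOX levels differ between samples labelled with the pro-inflammatory and with the normal diet. No HOX gene passed the threshold: limma called 0 of the 25 tested members at an adjusted p of 0.05, and 0% of all 12345 tested genes in either direction. At an unadjusted p under 0.05, 3 of 25 members were lower on the pro-inflammatory diet and 0 higher, where 9.25% of all genes were lower and 8.16% higher (17.4% in all). Limma voom on the recovered reads called 0 members, with 4 under 0.05. In HOXA 8 of 9 tested members had lower means on the pro-inflammatory diet (median log2 fold change -0.29), in HOXB 7 of 9 had higher ones (0.51) and in HOXD 4 of 7 had lower ones (-0.40). Over all 25 the median was -0.11, and over all tested genes it was -0.01.

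The largest log2 fold changes were those of Hoxb13, Hoxd13, Hoxb6, Hoxb8 and Hoxb7, and they rested on pro-inflammatory diet libraries 2 and 5. Hoxb13 averaged 193 ± 168 FPKM on the pro-inflammatory diet and 269 ± 56.8 FPKM on the normal diet (SD, n = 5 each), with a log2 fold change of -2.08 (SE 1.37, limma adjusted p = 0.427). Without those 2 libraries its log2 fold change was 0.25. Hoxd13 averaged 19.9 ± 20.1 FPKM on the pro-inflammatory diet and 33.1 ± 11.8 FPKM on the normal diet, a log2 fold change of -1.91 (SE 1.07, limma adjusted p = 0.365), or 0.022 without them. Hoxb6 averaged 18.0 ± 24.6 FPKM on the pro-inflammatory diet and 1.64 ± 0.990 FPKM on the normal diet, a log2 fold change of 1.54 (SE 0.95, limma adjusted p = 0.399), or -0.16 without them. Hoxb8 and Hoxb7 had log2 fold changes of 1.23 and 1.09, or 0.0039 and -0.12 without them. The spread on the pro-inflammatory diet was larger than the difference of the means for Hoxb13, Hoxd13 and Hoxb6. Without those libraries the sign also turned for Hoxa11, Hoxa13, Hoxb3, Hoxb4, Hoxb5, Hoxb7, Hoxb9, Hoxd4, Hoxd8 and Hoxd9.

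Hoxa6, Hoxa5 and Hoxa3 gave the smallest p-values of the members, with a pattern spread over more libraries, and were chosen for description after their values were seen. Hoxa6 was at 7.16, 4.18, 5.60, 6.29 and 4.46 FPKM on the pro-inflammatory diet, against 11.6, 8.12, 9.30, 8.0 and 9.32 FPKM on the normal diet. All 5 values of the pro-inflammatory diet lay below all 5 of the normal diet, as they did for 2.07% of tested genes, and no other member was without overlap. None had all 5 values above the normal diet, as 1.77% of tested genes did. It averaged 5.54 ± 1.24 FPKM on the pro-inflammatory diet and 9.27 ± 1.45 FPKM on the normal diet, a log2 fold change of -0.66 (SE 0.14, limma adjusted p = 0.151). Hoxa5, which acts in lung and gut patterning in mice, averaged 7.78 ± 1.64 FPKM on the pro-inflammatory diet and 11.6 ± 2.73 FPKM on the normal diet, a log2 fold change of -0.51 (SE 0.16, limma adjusted p = 0.183). Hoxa3 averaged 2.49 ± 0.357 FPKM on the pro-inflammatory diet and 3.72 ± 0.940 FPKM on the normal diet, a log2 fold change of -0.42 (SE 0.14, limma adjusted p = 0.193). Without pro-inflammatory diet libraries 2 and 5 these log2 fold changes were -0.48, -0.43 and -0.33. Hoxa3 spans Hoxa5 and Hoxa6 on the same strand, and the antisense gene Hoxaas3 overlaps all 3, so their reads may be shared.

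Smooth muscle markers had lower means on the pro-inflammatory diet as well. All 8 of the list (Acta2, Myh11, Des, Cnn1, Tagln, Actg2, Smtn and Myocd) were lower in mean (median log2 fold change -0.33, 0 passing), and their summed level was 1956 to 2739 FPKM there against 2249 to 3409 FPKM on the normal diet. Pro-inflammatory diet library 2 had both the lowest sum, 1956 FPKM, and the lowest Hoxa6, 4.18 FPKM. Normal diet library 1 had the highest of both, 3409 and 11.6 FPKM. Pro-inflammatory diet library 5 had the highest sum of its diet, 2739 FPKM, with Hoxa6 at 4.46 FPKM, while normal diet library 2 had a sum of 2249 FPKM with Hoxa6 at 8.12 FPKM. Of 7 epithelial markers 5 had higher means, with sums of 5458 to 6694 FPKM on the pro-inflammatory diet against 4450 to 6151 FPKM on the normal diet. With the muscle minus epithelial level as a covariate, the log2 fold changes of Hoxa6, Hoxa5 and Hoxa3 were -0.35, -0.11 and -0.20, and those of Hoxa9 and Hoxa10 were 0.12 and 0.047 in place of -0.29 and -0.28. All 5 fibroblast markers also had lower means on the pro-inflammatory diet (sums of 161 to 244 FPKM there against 207 to 267 FPKM on the normal diet), as did 4 of 6 neuron and glia markers. What the source cells of these markers contribute to the HOXA levels was not tested.

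**Figure D5:**
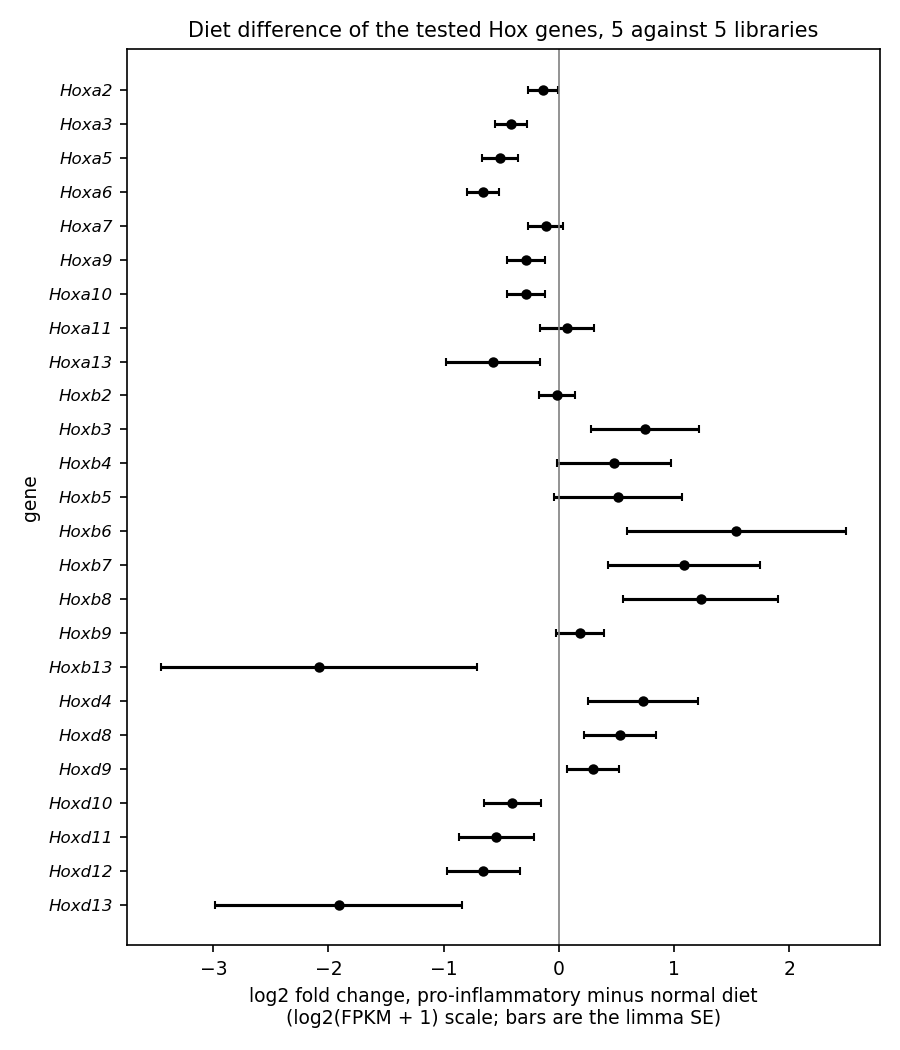
Log2 fold change (pro-inflammatory minus normal diet, log2(FPKM + 1) scale) of the 25 tested HOX genes in cluster order, with the limma SE as bars, 5 against 5 libraries. Hoxa6, at -0.66 with an SE of 0.14, has a small error, while Hoxb13 and Hoxd13 have the widest bars, and no gene passed the threshold.

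Partners and regulators of HOX proteins showed small differences. Of the TALE homeodomain cofactors, which bind DNA together with HOX proteins, 7 of 9 were tested, 5 with lower and 2 with higher means on the pro-inflammatory diet, and 0 passed. Pbx3 was at 5.03 ± 0.325 FPKM on the pro-inflammatory diet and 6.74 ± 1.14 FPKM on the normal diet (SD, n = 5 each; log2 fold change -0.35, limma adjusted p = 0.173). Meis1 and Meis2, partners of HOX proteins in the limb, had log2 fold changes of -0.24 and -0.29, Meis3 one of 0.11, and Pbx2 and Pknox1 ones of 0.04 and -0.10. Among 14 factors of gut position in the table, 11 were tested and 0 passed. Cdx2 had a log2 fold change of 0.40 with an SE of 0.67. Cdx1, Gata6, Foxf1, Foxf2 and Nkx2-3 had log2 fold changes between 0.0017 and 0.12, and Hnf4a and Hnf4g ones of -0.15 and -0.26. All 24 Polycomb and Trithorax genes, which keep HOX clusters silent or active, were tested, 11 with higher and 13 with lower means, and 0 passed. Kmt2a, the methyltransferase of active HOX chromatin, was at 7.39 ± 1.12 FPKM on the pro-inflammatory diet and 10.2 ± 1.20 FPKM on the normal diet (log2 fold change -0.42, limma adjusted p = 0.166), and the demethylase Kdm6a at 5.06 ± 0.320 FPKM on the pro-inflammatory diet and 6.06 ± 0.432 FPKM on the normal diet (log2 fold change -0.22, limma adjusted p = 0.173).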

How the data were processed

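RNA of 10 mouse colon samples was measured by sequencing of stranded mRNA libraries, per the labels' protocols. The authors deposited 1 FPKM value per gene symbol and sample. Tools listed in the submitters' processing notes are HISAT2, Bowtie2, Trimmomatic, StringTie, Cufflinks, HTSeq and DESeq, with the mm10 genome and no roles. FPKM divides by gene length and library total, so abundant genes in a library lower its other values. Samples were grouped by the treatment label, 5 on each diet.

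All 18398 genes had values that were whole multiples of 1 read within 0.001 read, which gave the reads per gene. The 12345 genes with a mean of at least 1 FPKM were fitted together in limma 3.58.1 (R 4.3.3), as log2(FPKM + 1), by eBayes with a trend, with p adjusted by Benjamini-Hochberg at 0.05. A positive log2 fold change means higher on the pro-inflammatory diet, and for low genes it understates the change. All 38 members matched a GENCODE M21 symbol. Intervals are exact Poisson at 95% and a count of 0 allows 3 reads, both covering counting error only. Per-library values were given for tested members of groups 9 to 13 and the 2 most abundant genes of each cluster, and others by range. From the further lists, tested TALE and position factors, the 2 chromatin genes with the smallest p and the genes next to a cluster were named. Some genes are not reported here, though counts include them. The members and lists were chosen with earlier results of these data known. The 23 other settings changed the pseudocount, filter, scaling, test, weights, covariates or libraries. Figures were drawn with matplotlib 3.10.9.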

Additional observations from a re-analysis of the deposited data

Results flagged for a closer look

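Dixon's ratio, which compares the gap between an extreme library and its neighbour with the whole range of its group of 5, marked 13 values among 76 groups of 5, of which 73 had any spread. Chance marks about 1 in 20 groups, a rate that does not apply to 6 of the 13, where a single library was above 0 and the ratio is fixed. Library 4 of the normal diet gave 7 of the 13, all as the highest of its diet: Hoxb1 at 0.0518, Hoxc6 at 0.166, Hoxc8 at 0.190, Hoxc9 at 0.0826, Hoxc10 at 0.681, Hoxc11 at 0.186 and Hoxc13 at 0.233 FPKM. The next highest normal diet library was at 0.0414 FPKM for Hoxc6, at 0.0289 for Hoxc10 and at 0 for the other 5. Library 2 of the pro-inflammatory diet was set apart as the highest for Hoxb2 at 2.68 (next 1.34), Hoxc9 at 0.0832 (next 0.0229) and Hoxc10 at 0.657 FPKM (next 0.131). On the same diet, library 1 had Hoxa5 at 10.7 FPKM (next 7.20) and library 4 had Hoxc11 at 0.0660 FPKM, with 0 in the others. Normal diet library 2 had Hoxa13 at 18.2 FPKM, the lowest of its diet, with the next at 22.6. For pairs of libraries, such as Hoxb13 or Hoxb6 in pro-inflammatory diet libraries 2 and 5, this ratio compares each with the other and marks neither.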

How the results depend on the processing

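Under all 23 settings limma called 0 HOX genes and 0 genes in all, with 1 to 7 HOX genes at an unadjusted p under 0.05. Of 575 log2 fold changes recomputed for the 25 tested members, 45 changed sign. Leaving out pro-inflammatory diet libraries 2 and 5 turned 13: -0.29 for Hoxa11, 0.11 for Hoxa13, 0.25 for Hoxb13, -0.093 for Hoxb3, -0.38 for Hoxb4, -0.42 for Hoxb5, -0.16 for Hoxb6, -0.12 for Hoxb7, -0.17 for Hoxb9, 0.022 for Hoxd13, -0.10 for Hoxd4, -0.0055 for Hoxd8 and -0.042 for Hoxd9. Leaving out normal diet library 4 as well, a setting chosen after seeing the data, gave -0.37 for Hoxa11, 0.11 for Hoxa13, 0.33 for Hoxb13, -0.067 for Hoxb3, -0.41 for Hoxb4, -0.39 for Hoxb5, -0.30 for Hoxb6, -0.17 for Hoxb7, -0.029 for Hoxb8, -0.22 for Hoxb9, 0.12 for Hoxd13, -0.071 for Hoxd4 and -0.037 for Hoxd9. The muscle minus epithelial covariate turned Hoxa10 (0.047), Hoxa2 (0.020), Hoxa7 (0.16), Hoxa9 (0.12) and Hoxb9 (-0.015). Array weights turned Hoxa11 (-0.24), Hoxb4 (-0.10), Hoxb5 (-0.15) and Hoxb9 (-0.059), and leaving out normal diet libraries 1, 2 and 3 turned Hoxa2 (0.056) and Hoxa7 (0.083). Beyond the libraries left out, the cause was not tested. Without 1 library at a time, Hoxa11 ranged from -0.087 to 0.19 and Hoxb2 from -0.17 to 0.070, and no other member changed sign. The pseudocount, filters, scalings and voom turned none.

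Same-numbered libraries of the diets did not deviate together (correlations of -0.26 to 0.06). Low correlations over all genes cannot exclude that the numbers pair libraries. The replicate block called 0 HOX genes and turned no direction, with -0.66 for Hoxa6 (SE 0.099, against 0.139 without the block). The size of the group 13 share of summed FPKM depended on Hoxb13, but the separation of pro-inflammatory diet libraries 2 and 5 did not. Without Hoxb13 it came to 33.9%, 1.80%, 33.6%, 43.1% and 6.10% for libraries 1 to 5 of the pro-inflammatory diet, and 27.3%, 33.2%, 24.9%, 39.1% and 38.1% in normal diet libraries 1 to 5. With groups 10 to 13 it was 72.7% and 83.8% in normal diet libraries 1 and 5. Levels of a few reads, as most HOXC levels were, cannot show small differences at this depth. Hoxc10 held 22 reads in pro-inflammatory diet library 2 and 23 in normal diet library 4.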
